A study of Mus musculus with 6 samples.

Results

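The Notch pathway was followed here through 38 genes for its ligands, receptors, processing enzymes, nuclear complex, effectors and modulators, named by symbol and matched to the Ensembl identifiers in the count tables. All 38 were among the 52636 genes counted, and 34 of them passed the low-count filter that left 15816 genes for testing. The samples were mouse E14 embryonic stem cells, taken through 4 days of differentiation with 5 µM retinoic acid (the labels print the unit as µm) after LIF and the inhibitors of MEK and GSK were withdrawn. The knockout group had 3 libraries of E14 cells lacking an enhancer cluster, which the series title ties to HoxB activation and to the formation of neural progenitors, and the wild-type group had 3 libraries of wild-type E14 cells under the same treatment. The labels call the replicates biological but do not say whether the knockout cells were 1 clone or several, so p-values measure the spread between these libraries.

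Notch receptors are cleaved when a Delta or Jagged ligand on a neighbouring cell pulls on them, first by an ADAM protease at the surface and then by gamma-secretase within the membrane. The freed intracellular domain enters the nucleus, joins the DNA-binding protein RBPJ and a Mastermind coactivator, and turns on genes of the Hes and Hey families, which encode transcriptional repressors. In the developing nervous system this signalling keeps progenitors from becoming neurons, because Hes proteins hold down proneural genes. In embryonic stem cells it is known to favour entry into neural fates, and it is used again in vessels, somites and many epithelia.

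Gene counts per library were 7780368 to 8521902 in the knockout group and 8208615 to 9472916 in the wild-type group, and all values are CPM, counts scaled to a common library size with TMM factors, unless stated otherwise. Knockout replicate 1 stood apart from the other knockout libraries, with a chi-square per degree of freedom of 5.88 and 7.07 against them, compared with 2.39 between the other two and 1.90 to 2.04 among wild-type libraries. Genes over ribosomal RNA repeats held 1.04% of its counts and 0.0726 to 0.118% in the other 5 libraries. How much of its chi-square came from these genes was not tested. Mitochondrial genes held 2.58 to 2.89% of counts in knockout libraries and 1.67 to 1.73% in wild-type libraries. Of the marker lists, the 7 genes of primitive and visceral endoderm summed to 1918 to 1998 CPM in knockout libraries and 688 to 718 CPM in wild-type libraries, with 5 of 7 higher, 1 lower and none under 1 CPM throughout. The 7 neural progenitor genes summed to 116 to 124 CPM in knockout libraries and 445 to 472 CPM in wild-type libraries, and Fabp7 was at 0 in every library. Of the 6 tested, Sox2, Sox3, Nes and Cdh2 fell, Pax6 rose and Sox1 did not pass, with Nes at a mean of 33.6 CPM in knockout and 231 CPM in wild-type libraries. The 6 pluripotency genes summed to 713 to 760.0 CPM in knockout libraries and 971 to 999 CPM in wild-type libraries, where Nanog, Zfp42 and Esrrb fell, Pou5f1 and Klf4 rose and Dppa5a did not pass. The 6 neuron genes summed to 74.8 to 77.6 CPM in knockout libraries and 133 to 142 CPM in wild-type libraries, of which Tubb3 had a mean of 2.04 CPM in knockout and 62.7 CPM in wild-type libraries. Stmn2 also fell, while Map2 rose, at 16.9 CPM in knockout and 5.47 CPM in wild-type libraries, and Elavl3 did not pass. Endothelial genes summed to 26.8 to 29.7 CPM in knockout libraries and 36.3 to 42.8 CPM in wild-type libraries, with Pecam1 at a mean of 11.3 CPM in knockout and 21.6 CPM in wild-type libraries. Pecam1 and Tek fell, Cdh5 rose and Kdr did not pass. Presomitic mesoderm genes summed to 2.96 to 5.04 CPM in knockout libraries and 2.94 to 4.25 CPM in wild-type libraries, and Emcn and Msgn1 were at 0 in every library. All of these sums but that of presomitic mesoderm separated the knockout from the wild-type libraries, though each of those lists held genes that rose and genes that fell, and their part in the results that follow was not tested. In bulk RNA, fewer cells of a type and less RNA per cell cannot be told apart.

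Notch pathway genes changed in both directions in the knockout, and in 6 of the 7 role groups at least 1 gene rose while another fell. Hey1 rose and Hes1 fell among the effectors, Notch1 rose and Notch2, Notch3 and Notch4 fell among the receptors, Dll1 rose and Jag1 fell among the ligands, and Mfng rose and Lfng fell among the Fringe enzymes. Of the 34 tested genes, 14 rose, 10 fell and 10 did not pass the edgeR test at an adjusted p of 0.05. Together 24 of 34 (70.6%) were called, against 68.6% of all 15816 tested genes, of which 34.5% were higher and 34.0% lower, so the share called was near the background. The median log2 fold change of the 34 genes was 0.23, against 0.01 over all tested genes, and the median absolute log2 fold change was 0.46, against 0.49. A log2 fold change of at least 1 in size was called for 6 of the 34, 3 higher and 3 lower, against 21.0% of all tested genes. In 25 of the 34 genes the 3 knockout values lay wholly above or wholly below the 3 wild-type values, against 70.9% of all tested genes. Without knockout replicate 1, 15 rose and 10 fell. With upper-quartile scaling 19 rose and 10 fell, as Jag2, Pofut1, Adam17, Aph1a and Rbpj then passed.

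**Figure D1:**
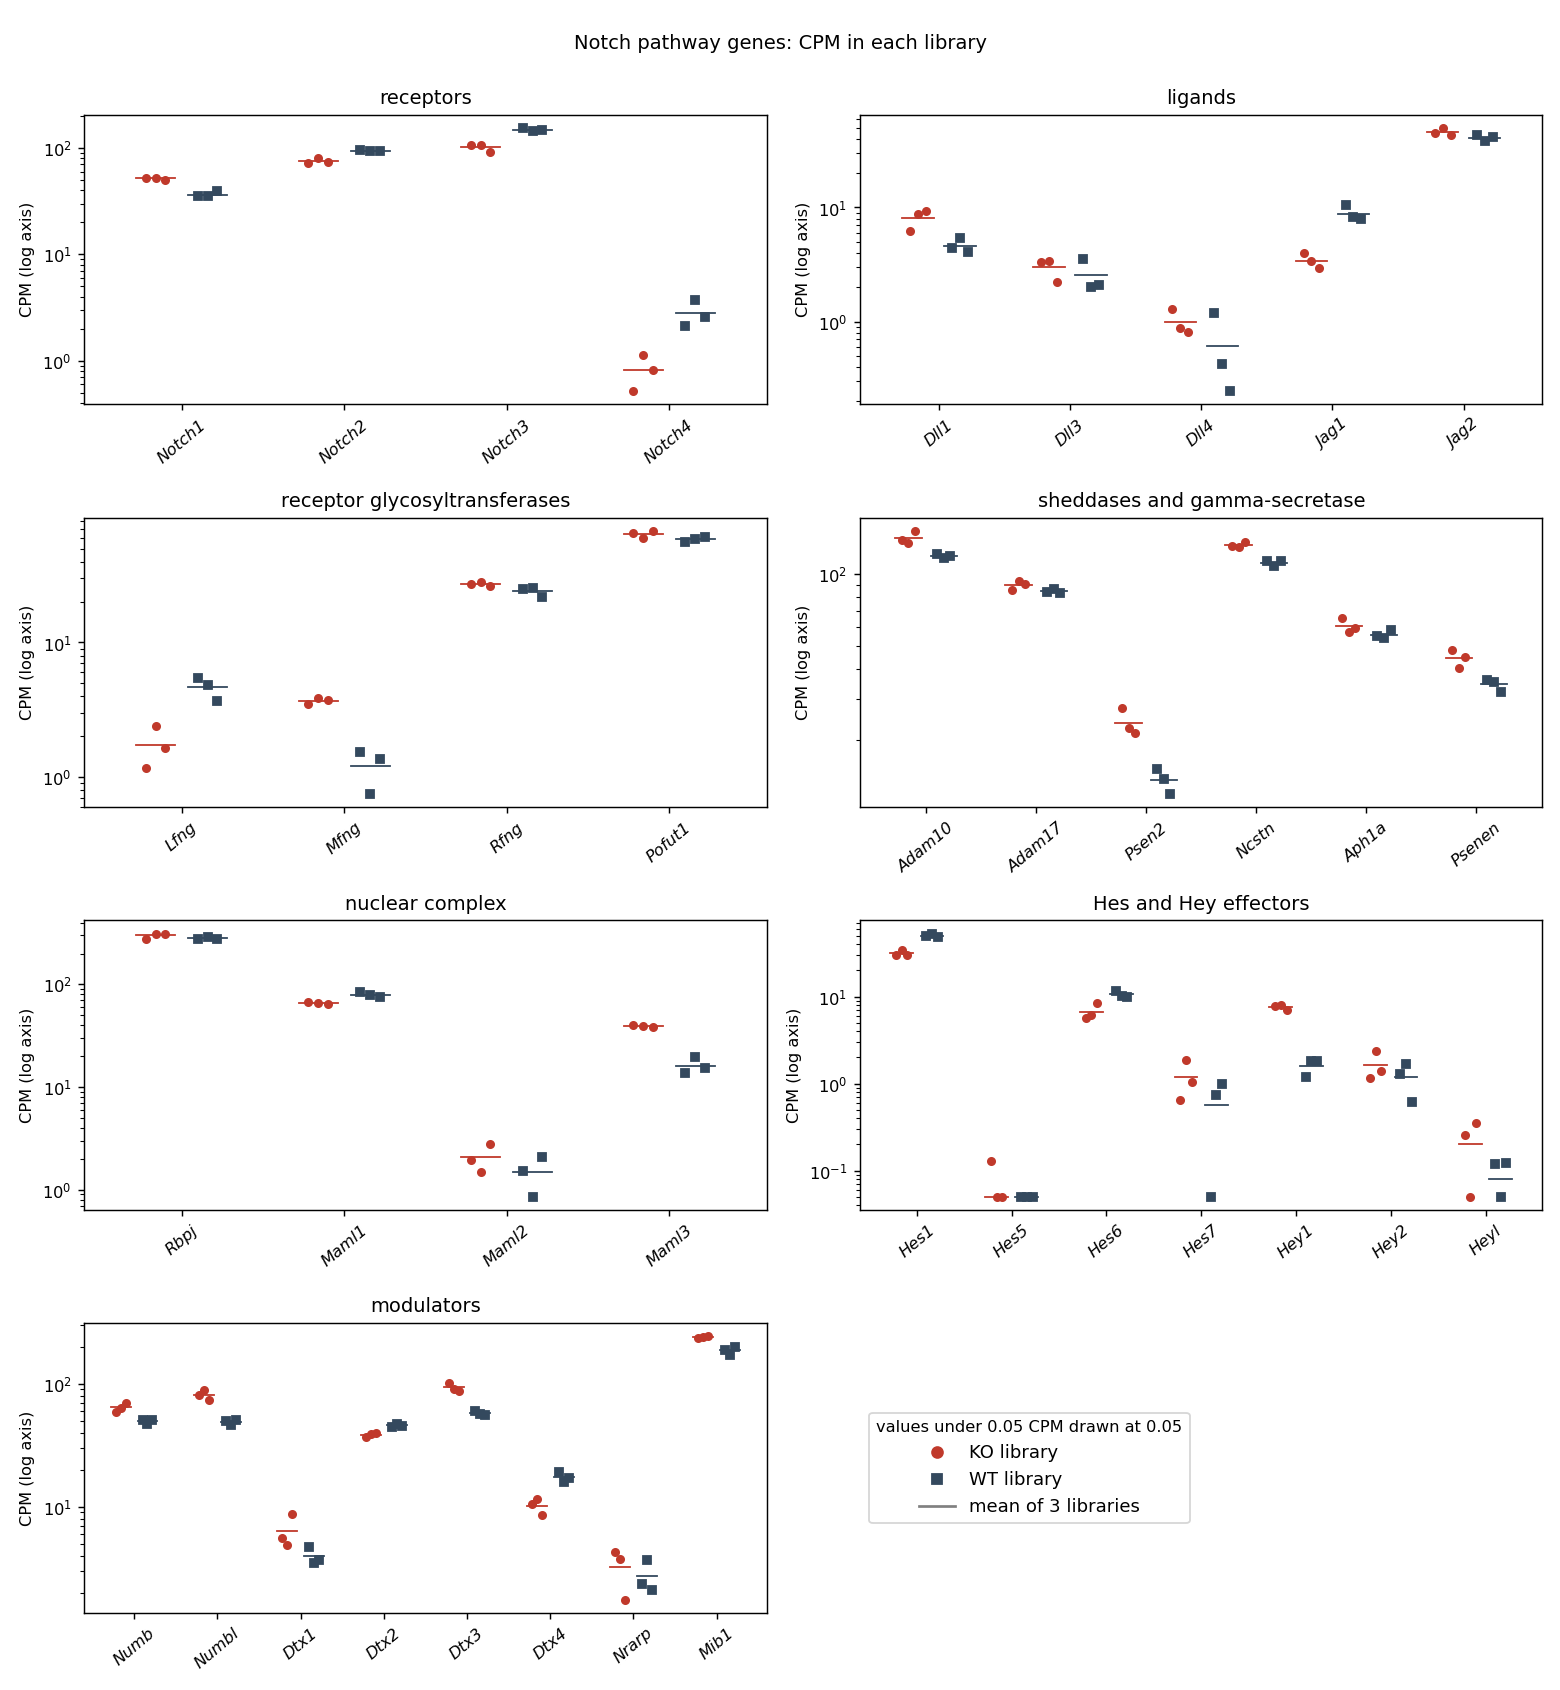
CPM of the 38 Notch pathway genes in each library on log axes, 1 panel per role, with knockout libraries as circles, wild-type libraries as squares and a line at each group's mean; values under 0.05 CPM are drawn at 0.05. Hey1 sits at 7.86, 7.99 and 7.03 CPM in knockout and 1.18, 1.81 and 1.84 CPM in wild-type libraries, while Hes1, the most abundant effector, is lower in every knockout library than in every wild-type library.

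Among the receptors, the single-pass proteins that receive the signal, all 4 genes changed, 1 higher and 3 lower. Of all tested genes 68.6% were called, 34.5% higher and 34.0% lower. Notch1 (ENSMUSG00000026923, chromosome 2, 26457903 to 26516663, GRCm38) had 52.7, 52.7 and 50.0 CPM in the 3 knockout libraries, against 35.4, 35.0 and 39.0 CPM in the 3 wild-type libraries. It rose by 0.51 on the log2 scale (SE 0.078, edgeR adjusted p = 2.83e-06). All 3 knockout values lay above all 3 wild-type values. Notch3 (ENSMUSG00000038146, chromosome 17, 32120820 to 32166852) had 106, 106 and 91.4 CPM in the 3 knockout libraries, against 154, 145 and 147 CPM in the 3 wild-type libraries. It fell by 0.56 (SE 0.054, edgeR adjusted p = 1.02e-09), and each knockout library was below each wild-type library. Notch2 had 72.8, 81.0 and 73.8 CPM in the 3 knockout libraries, against 96.3, 92.7 and 94.0 CPM in the 3 wild-type libraries, and it fell by 0.31 (SE 0.055, edgeR adjusted p = 1.53e-05), again with no overlap. Notch4, known mainly from the endothelium, was the rarest receptor, with 4, 9 and 7 counts in the 3 knockout libraries and 18, 35 and 21 in the 3 wild-type libraries. It fell by 1.76 (SE 0.41, edgeR adjusted p = 4.97e-04), and its groups did not overlap either. Notch1 shares 9.76% of its exonic bases with genes on the opposite strand, and Notch3 6.03%. As the strand setting of the counting was not given in the sources used here, reads of such stretches cannot be placed on one gene.

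Per kilobase of exon, Notch3 was the most abundant receptor in both groups, with a mean level of 12.5 in knockout and 18.4 in wild-type libraries (CPM per kb). Notch2 followed at 7.04 in knockout and 8.75 in wild-type libraries, and Notch1 stood at 3.64 in knockout and 2.56 in wild-type libraries. The order of the 3 was therefore the same in both groups, with Notch4 last. The 4 receptors summed to 21.8 to 24.4 in knockout libraries and 29.5 to 30.7 in wild-type libraries (CPM per kb), so the sum was lower in every knockout library. Notch1 held 15.6 ± 0.500% in knockout libraries and 8.53 ± 0.562% in wild-type libraries (SD, n = 3 each) of that sum. Notch3 held 53.7 ± 1.83% in knockout libraries and 61.2 ± 0.726% in wild-type libraries (SD, n = 3 each). For both shares the groups did not overlap, and the exact two-sided permutation p was 0.1, the smallest that 3 against 3 libraries allow (0.2 after Benjamini-Hochberg adjustment over 16 shares). Within a library the level of Notch1 over that of Notch3, a ratio that library scaling does not touch, was 0.281, 0.283 and 0.311 in the knockout libraries, against 0.130, 0.137 and 0.151 in the wild-type libraries.

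Of the 5 ligands, 4 passed the filter, and of these Dll1 rose, Jag1 fell and Dll3 and Jag2 did not pass the test. Jag1 (ENSMUSG00000027276, chromosome 2, 137081456 to 137116644), a Jagged ligand, had 3.99, 3.37 and 2.93 CPM in the 3 knockout libraries, against 10.4, 8.19 and 7.85 CPM in the 3 wild-type libraries. It fell by 1.36 (SE 0.22, edgeR adjusted p = 4.62e-06), and its highest knockout library was below its lowest wild-type library. Dll1 (ENSMUSG00000014773, chromosome 17, 15367354 to 15376872), a Delta ligand of neural progenitors and the presomitic mesoderm, had 6.18, 8.73 and 9.25 CPM in the 3 knockout libraries, against 4.38, 5.42 and 4.05 CPM in the 3 wild-type libraries. It rose by 0.80 (SE 0.21, edgeR adjusted p = 0.00185) with no overlap, though knockout replicate 1 was closer to the wild type than the other two. It shares 20.5% of its exonic bases with A930024N18Rik, which runs on the opposite strand. Jag2 was the most abundant ligand, with 44.6, 49.7 and 42.7 CPM in the 3 knockout libraries, against 43.2, 38.0 and 41.1 CPM in the 3 wild-type libraries. Its groups overlapped and its log2 fold change of 0.17 (SE 0.083, edgeR adjusted p = 0.0795) did not pass. Dll3, a divergent Delta protein that is known to act inside the signalling cell and not to activate receptors on others, had 26, 27 and 19 counts in the 3 knockout libraries and 30, 19 and 17 in the 3 wild-type libraries. Its log2 fold change was 0.22 (SE 0.33, edgeR adjusted p = 0.557). Dll4, best known from vessel sprouting, did not pass the filter and had 10, 7 and 7 counts in the 3 knockout libraries and 10, 4 and 2 in the 3 wild-type libraries.

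Jag2 held 63.3 ± 0.704% in knockout libraries and 61.7 ± 3.53% in wild-type libraries (SD, n = 3 each) of the summed ligand level per kilobase. Jag1 held 5.70 ± 0.966% in knockout libraries and 15.8 ± 0.974% in wild-type libraries (SD, n = 3 each), and Dll1 18.5 ± 3.87% in knockout libraries and 11.6 ± 2.41% in wild-type libraries (SD, n = 3 each). The exact permutation p was 0.1 for Jag1 and for Dll1 (adjusted 0.2) and 0.6 for Jag2 (adjusted 0.686). The level of Dll1 over that of Jag1 within a library was 2.14, 3.58 and 4.36 in the knockout libraries, against 0.581, 0.915 and 0.712 in the wild-type libraries. Dll1 was thus above Jag1 per kilobase in each knockout library and below it in each wild-type library. The ligand sum itself was 9.83 to 11.2 in knockout libraries and 8.96 to 10.6 in wild-type libraries (CPM per kb), ranges that overlap.

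**Figure D2:**
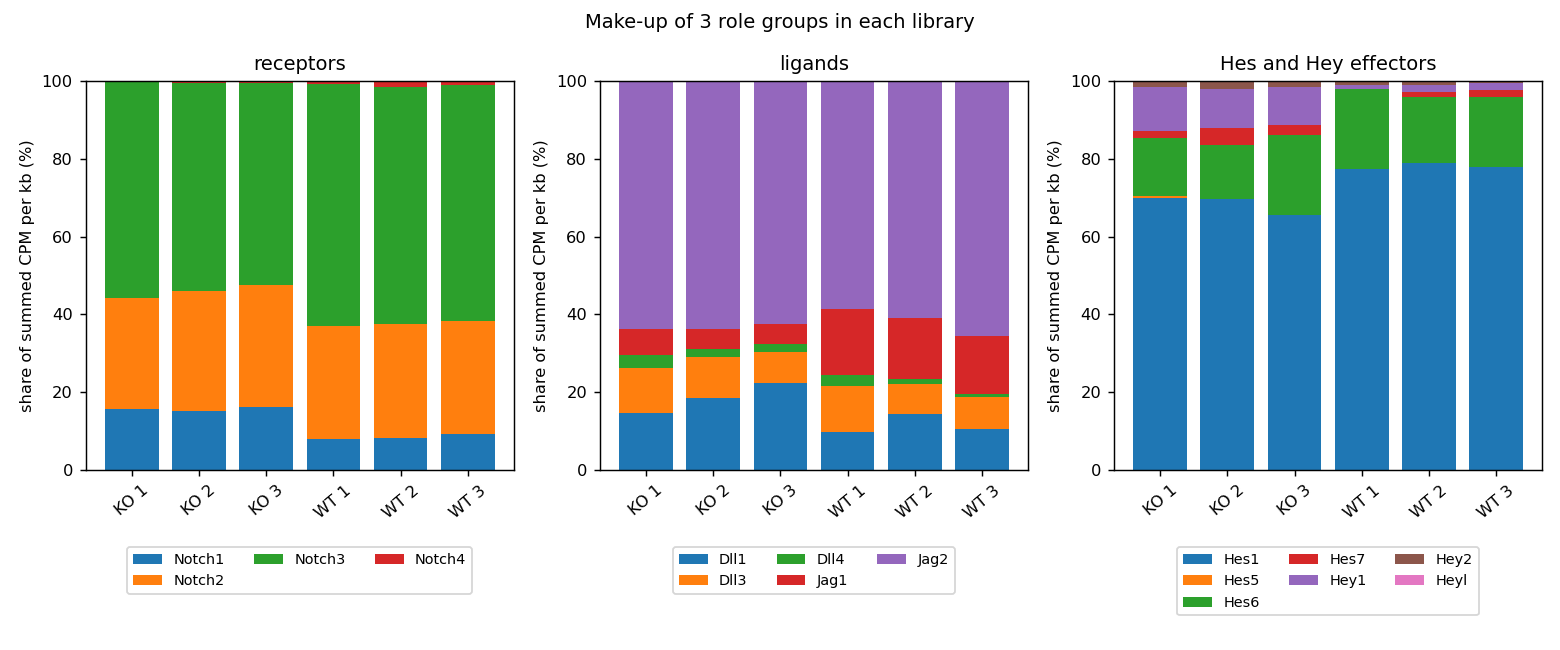
Share of the summed CPM per kb of exon (%) held by each receptor, ligand and Hes or Hey gene, as stacked bars for the 3 knockout (KO) and 3 wild-type (WT) libraries. Notch1, Dll1 and Hey1 take larger shares in each knockout library than in any wild-type library, and Notch3, Jag1 and Hes1 smaller ones. For Dll1 the gap is narrow, at 14.6% in knockout replicate 1 and 14.3% in wild-type replicate 2.

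Receptors carry sugars that tune which ligand they answer to. Pofut1 adds the first fucose, and the Fringe enzymes Lfng, Mfng and Rfng extend it, which for Lfng and Mfng in general favours Delta over Jagged ligands. Lfng (ENSMUSG00000029570, chromosome 5, 140607320 to 140615545) had 9, 19 and 14 counts in the 3 knockout libraries and 46, 45 and 30 in the 3 wild-type libraries, or 1.16, 2.37 and 1.64 CPM in knockout libraries and 5.44, 4.79 and 3.68 CPM in wild-type libraries. It fell by 1.42 (SE 0.31, edgeR adjusted p = 2.82e-04). Mfng (ENSMUSG00000018169, chromosome 15, 78755882 to 78773475) had 27, 31 and 32 counts in the 3 knockout libraries and 13, 7 and 11 in the 3 wild-type libraries, or 3.48, 3.87 and 3.75 CPM in knockout libraries and 1.54, 0.744 and 1.35 CPM in wild-type libraries. It rose by 1.62 (SE 0.35, edgeR adjusted p = 2.10e-04). For both genes the groups did not overlap, on counts that are low throughout. Mfng over Lfng, per kilobase, was 2.65, 1.44 and 2.02 in the knockout libraries, against 0.249, 0.137 and 0.324 in the wild-type libraries, above 1 in each knockout library and below 1 in each wild-type library. Rfng was by far the most abundant Fringe gene per kilobase, at a mean level of 11.0 in knockout and 9.70 in wild-type libraries (CPM per kb). Its counts scaled to 27.3, 28.2 and 26.5 CPM in knockout libraries and 25.2, 25.3 and 22.0 CPM in wild-type libraries. The knockout values lay above the wild-type ones, but the log2 fold change of 0.18 (SE 0.10, edgeR adjusted p = 0.134) did not pass. Pofut1 had 65.2, 60.4 and 67.8 CPM in knockout libraries and 56.3, 58.6 and 60.9 CPM in wild-type libraries, with a log2 fold change of 0.14 (SE 0.067, edgeR adjusted p = 0.0667) and groups that met.

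Of the 6 cleavage enzyme genes tested, 4 rose, 0 fell and 2 did not pass, where 34.5% of all tested genes were higher and 34.0% lower. All 6 log2 fold changes were positive by edgeR, so a looser threshold could not have given a lower call. They were also positive by DESeq2 and limma-voom, which used the same libraries. In the list of other pathway genes, the receptor convertase gene Furin fell by 0.74. The gamma-secretase genes Aph1b and Aph1c of that list rose by 2.06 and 2.65. Psen2, a catalytic subunit of gamma-secretase, had 27.4, 22.5 and 21.4 CPM in the 3 knockout libraries, against 15.1, 13.7 and 11.9 CPM in the 3 wild-type libraries. It rose by 0.80 (SE 0.13, edgeR adjusted p = 5.96e-06), the largest change of the 6 and without overlap. Psenen, the smallest subunit, which triggers maturation of the complex, had 47.9, 40.2 and 45.0 CPM in the 3 knockout libraries, against 36.1, 35.2 and 32.0 CPM in the 3 wild-type libraries. Per kilobase it and Ncstn were the most abundant of the 6 by their means, and their order differed between libraries of the same group. Psenen had a mean level of 34.8 in knockout and 27.0 in wild-type libraries, while Ncstn was at 33.4 in knockout and 28.1 in wild-type libraries (CPM per kb). Psenen rose by 0.36 (SE 0.087, edgeR adjusted p = 6.76e-04), with every knockout value above the wild-type range. Ncstn, encoding the substrate-binding nicastrin, rose by 0.25 (SE 0.047), and stood at 133 ± 3.24 CPM in knockout and 112 ± 3.31 CPM in wild-type libraries (SD, n = 3 each). Adam10, the main protease of ligand-driven cleavage, rose by 0.25 (SE 0.050), at 142 ± 9.10 CPM in knockout and 119 ± 2.35 CPM in wild-type libraries (SD, n = 3 each). These rises were small, at 1.19 to 1.29 times the wild-type level for Adam10, Ncstn and Psenen, against 1.74 times for Psen2. The scaffold subunit gene Aph1a was at 0.13 (SE 0.070) and Adam17, another sheddase, at 0.10 (SE 0.052), and neither passed. Of their exonic bases, Aph1a shares 12.9%, Psenen 9.33%, Ncstn 4.91% and Adam17 4.35% with genes on the opposite strand.

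In the nuclear complex, Maml3 rose, Maml1 fell and Rbpj and Maml2 did not pass. Rbpj, the DNA-binding protein that every canonical Notch signal goes through, was the most abundant gene of the group, with 277, 312 and 313 CPM in the 3 knockout libraries, against 279, 287 and 280.1 CPM in the 3 wild-type libraries. Its log2 fold change was 0.09 (SE 0.046, edgeR adjusted p = 0.0814). Knockout replicate 1 lay just below the wild-type values and the other two above them. Without that library the log2 fold change was 0.15 and passed (edgeR adjusted p = 0.00158, against 0.0165 to 0.278 under the other alternatives). Maml3 (ENSMUSG00000061143, chromosome 3, 51685907 to 52105076), a Mastermind coactivator, had 40.6, 39.7 and 38.4 CPM in the 3 knockout libraries, against 13.7, 19.7 and 15.2 CPM in the 3 wild-type libraries. It rose by 1.28 (SE 0.11, edgeR adjusted p = 2.16e-10), with the groups far apart. Maml1, the best studied of the 3 coactivators, had 68.0, 65.8 and 64.3 CPM in knockout libraries and 84.9, 78.6 and 75.8 CPM in wild-type libraries. It fell by 0.27 (SE 0.060, edgeR adjusted p = 2.79e-04), also without overlap. Maml1 stayed above Maml3 per kilobase in both groups, with a mean level of 11.9 in knockout and 14.4 in wild-type libraries, while Maml3 was at 3.77 in knockout and 1.55 in wild-type libraries (CPM per kb). Maml2 had only 15, 12 and 24 counts in the 3 knockout libraries and 13, 8 and 17 in the 3 wild-type libraries and a log2 fold change of 0.50 (SE 0.40).

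The Hes and Hey genes encode the repressors through which the pathway is usually read, and 4 of the 7 passed the filter. Hey1 (ENSMUSG00000040289, chromosome 3, 8663359 to 8667256), a Hey repressor best known from the heart, vessels and neural progenitors, had 61, 64 and 60 counts in the 3 knockout libraries and 10, 17 and 15 in the 3 wild-type libraries. Scaled, that was 7.86, 7.99 and 7.03 CPM in knockout libraries and 1.18, 1.81 and 1.84 CPM in wild-type libraries. It rose by 2.23 (SE 0.26, edgeR adjusted p = 3.39e-08), or 4.69-fold, the largest change of the 34 tested genes, and the lowest knockout library was several-fold above the highest wild-type one. Hes1 (ENSMUSG00000022528, chromosome 16, 30064384 to 30067796), the repressor that maintains neural progenitors and cycles in embryonic stem cells, had 30.0, 34.7 and 30.2 CPM in the 3 knockout libraries, against 49.7, 53.2 and 48.2 CPM in the 3 wild-type libraries. It fell by 0.67 (SE 0.084, edgeR adjusted p = 1.09e-07), and each knockout value was below each wild-type value. Hes6, which unlike the others is known to oppose Hes1 and to favour neuronal differentiation, had 5.67, 6.11 and 8.43 CPM in the 3 knockout libraries, against 11.7, 10.2 and 9.94 CPM in the 3 wild-type libraries. It fell by 0.65 (SE 0.18, edgeR adjusted p = 0.00265) with no overlap, knockout replicate 3 being nearest to the wild type. Hey2 had 9, 19 and 12 counts in the 3 knockout libraries and 11, 16 and 5 in the 3 wild-type libraries, in ranges that overlap, and its log2 fold change of 0.42 (SE 0.44, edgeR adjusted p = 0.405) did not pass.

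The other 3 effectors did not pass the filter. Hes5, the main Notch effector of embryonic neural progenitors beside Hes1, had 1, 0 and 0 counts in the 3 knockout libraries and 0, 0 and 0 in the 3 wild-type libraries. A count of 0 allows up to 0.317 to 0.366 CPM in a wild-type library (3 counts of its total, for counting error only). Hes5 shares 31.8% of its exonic bases with Gm20421 on the opposite strand, and Hes7 12.9% with genes there. Hes7, the oscillator of the presomitic mesoderm, had 5, 15 and 9 counts in the 3 knockout libraries and 0, 7 and 8 in the 3 wild-type libraries, and Heyl had 2, 0 and 3 counts in the 3 knockout libraries and 1, 0 and 1 in the 3 wild-type libraries. None of the 3 was tested, and with no low-count filter their adjusted p by edgeR was 0.157 for Hes7 and 0.526 for Hes5 and Heyl. Hes2, a Hes gene of the list of other pathway genes, also failed the filter. It had 9, 6 and 6 counts in the 3 knockout libraries and 2, 1 and 2 in the 3 wild-type libraries, with no overlap in CPM. Its adjusted p by edgeR with no low-count filter was 0.0309. Adjusted p from that fit cannot be set beside that of the main fit. For Notch3 it was 2.21e-29 by edgeR with no filter, against 1.02e-09 in the main fit, and for Jag2 0.128, against 0.0795.

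Per kilobase Hes1 was the leading effector in both groups, with a mean level of 15.5 in knockout and 24.7 in wild-type libraries, followed by Hes6 at 3.73 in knockout and 5.87 in wild-type libraries (CPM per kb). Hey1 stood at 2.34 in knockout and 0.493 in wild-type libraries, so that it stayed below Hes1 in each library even after its rise. Hes1 held 68.5 ± 2.49% in knockout libraries and 78.0 ± 0.801% in wild-type libraries (SD, n = 3 each) of the summed effector level, and Hey1 10.3 ± 0.998% in knockout libraries and 1.56 ± 0.366% in wild-type libraries (SD, n = 3 each). For both shares the exact permutation p was 0.1 (adjusted 0.2). Hey1 over Hes1 within a library was 0.163, 0.144 and 0.145 in the knockout libraries, against 0.0149, 0.0212 and 0.0238 in the wild-type libraries. The effector sum was 21.0 to 24.4 in knockout libraries and 30.4 to 33.1 in wild-type libraries (CPM per kb), lower in every knockout library.

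Promoter windows from RefSeq (GRCm38.p6, 250 bases before to 50 after the annotated start) were found for 31 of the 38 genes, in 39 windows. No window was printed or searched for Hes1, Hey1, Heyl, Mfng, Dtx3, Dtx4 and Mib1. The windows were searched on both strands for GTGGGAA, the core that RBPJ reads. It was found in 6 of the 39 windows (15.4%), those of Lfng, Hes5, Hes7, Hey2, Psen2 and Aph1a, against 6.38% of all 32851 windows in the table. The genes of these windows did not share a direction, with Lfng lower, Psen2 higher, Hey2 and Aph1a not passing the test and Hes5 and Hes7 too low to test. The E-box CACGTG was in 4 of the 39 windows, against 7.15% of all windows, and CACNAG, an N-box that Hes repressors bind, in 16 of 39, against 42.5%. In Lfng the GTGGGAA overlaps a CACGTG that starts 112 bases before the gene's start. The windows of Lfng and of the 3 effectors that hold the core are shown because they are the promoters of a changed receptor modifier and of classical outputs of the pathway. Each runs 5′ to 3′ along the gene from 250 bases before the start to 20 after it, with the core in capitals, GTGGGAA on the gene's strand and TTCCCAC where it lies on the other. They lie at chr5:140607091-140607360 (plus strand) for Lfng, chr4:154960673-154960942 (plus strand) for Hes5, chr11:69120203-69120472 (plus strand) for Hes7 and chr10:30842764-30843033 (minus strand) for Hey2.
Lfng: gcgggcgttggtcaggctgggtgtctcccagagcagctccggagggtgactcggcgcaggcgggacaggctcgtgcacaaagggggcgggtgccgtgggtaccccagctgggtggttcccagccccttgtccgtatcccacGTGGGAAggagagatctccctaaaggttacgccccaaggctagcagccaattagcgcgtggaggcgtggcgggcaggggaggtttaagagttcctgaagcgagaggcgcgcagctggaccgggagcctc
Hes5: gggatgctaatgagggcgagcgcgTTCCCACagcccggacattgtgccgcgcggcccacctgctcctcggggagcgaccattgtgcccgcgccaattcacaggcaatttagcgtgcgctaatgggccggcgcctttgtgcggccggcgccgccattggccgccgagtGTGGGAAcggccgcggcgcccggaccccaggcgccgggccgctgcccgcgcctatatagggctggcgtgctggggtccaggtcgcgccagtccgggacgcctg
Hes7: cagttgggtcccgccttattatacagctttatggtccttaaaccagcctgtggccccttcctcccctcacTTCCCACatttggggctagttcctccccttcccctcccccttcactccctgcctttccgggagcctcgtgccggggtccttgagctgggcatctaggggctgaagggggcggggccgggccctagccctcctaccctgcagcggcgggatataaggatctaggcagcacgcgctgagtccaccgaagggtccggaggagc
Hey2: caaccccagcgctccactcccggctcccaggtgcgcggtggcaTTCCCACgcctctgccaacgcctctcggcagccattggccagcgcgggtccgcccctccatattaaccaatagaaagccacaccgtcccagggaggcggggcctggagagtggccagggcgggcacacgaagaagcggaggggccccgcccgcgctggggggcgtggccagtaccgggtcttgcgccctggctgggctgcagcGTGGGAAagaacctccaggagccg
Hes5 and Hey2 each hold the core at 2 places, one on each strand, starting 226 and 83 bases before the start in Hes5 and 207 and 4 bases before it in Hey2. Lfng and Hes7 hold it once, 109 and 180 bases before the start. A match to these letters is a description of the window and does not show binding.

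**Figure D3:**
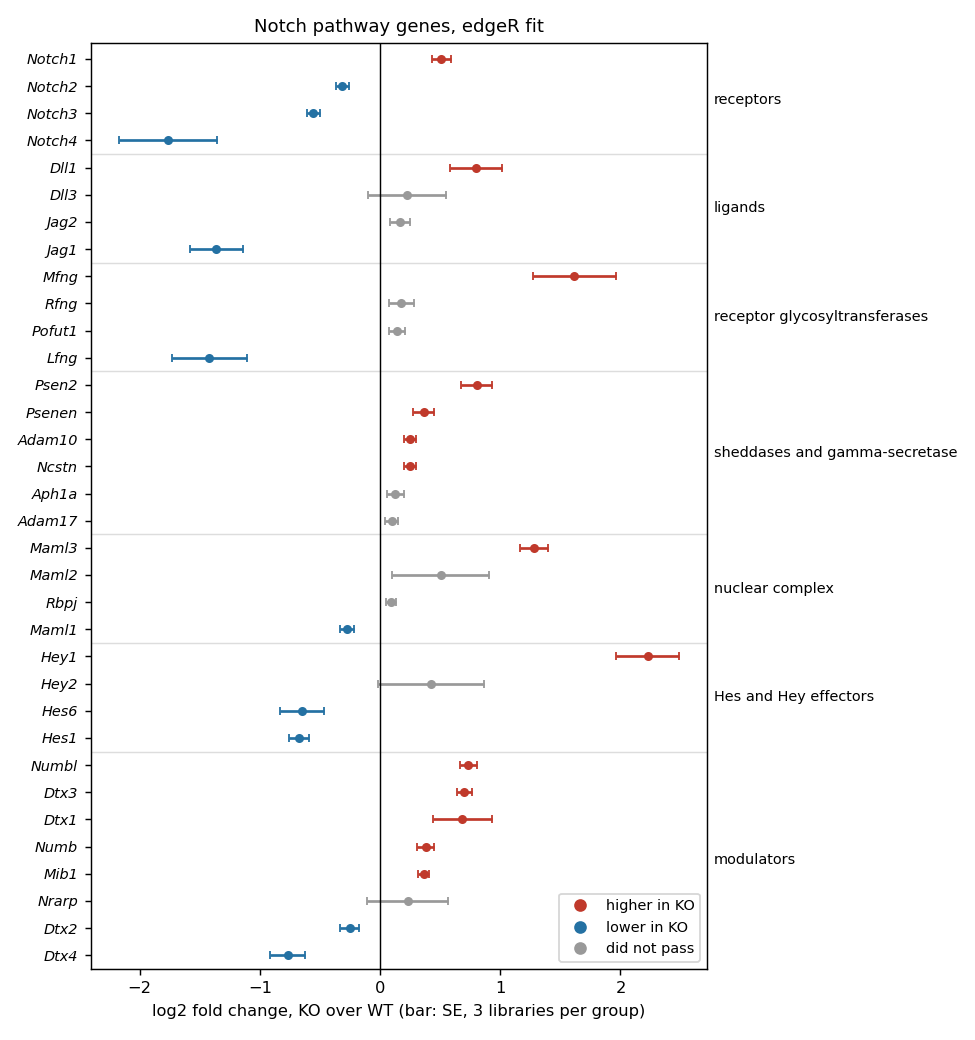
Log2 fold change, knockout over wild type, of the 34 tested Notch pathway genes with its standard error (3 libraries per group), grouped by role and coloured by call. Hey1 lies farthest to the right at 2.23 and Notch4 farthest to the left at -1.76, and most role groups hold points on both sides of 0.

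Among the modulators, 5 of 8 rose, 2 fell and 1 did not pass, where 34.5% of all tested genes were higher and 34.0% lower. The endocytic adaptors Numb and Numbl, which oppose Notch signalling, both rose. Numbl had 80.9, 88.6 and 74.4 CPM in the 3 knockout libraries, against 49.9, 46.4 and 50.6 CPM in the 3 wild-type libraries, and rose by 0.73 (SE 0.070, edgeR adjusted p = 7.56e-10). Numb rose by 0.38 (SE 0.072), at 64.4 ± 5.28 CPM in knockout and 49.6 ± 2.07 CPM in wild-type libraries (SD, n = 3 each). Mib1, the ubiquitin ligase that sends ligands into the endocytosis needed for signalling, rose by 0.36 (SE 0.048), at 239 ± 3.86 CPM in knockout and 186 ± 13.5 CPM in wild-type libraries (SD, n = 3 each). For these 3 genes every knockout library was above every wild-type library.

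The Deltex genes, which encode ubiquitin ligases that act on Notch receptors in a manner that depends on context, moved both ways. Dtx3 was the most abundant modulator per kilobase and had 102, 90.6 and 86.8 CPM in the 3 knockout libraries, against 59.7, 56.5 and 55.6 CPM in the 3 wild-type libraries. It rose by 0.70 (SE 0.064, edgeR adjusted p = 3.61e-10) with no overlap. Dtx4 had 10.4, 11.6 and 8.55 CPM in the 3 knockout libraries, against 19.3, 15.7 and 17.1 CPM in the 3 wild-type libraries. It fell by 0.77 (SE 0.15, edgeR adjusted p = 5.19e-05), and Dtx2 fell by 0.25 (SE 0.079), at 38.4 ± 1.60 CPM in knockout and 45.8 ± 1.30 CPM in wild-type libraries (SD, n = 3 each). Both lay lower in every knockout library. Dtx1, itself known as a Notch target in lymphocytes, had 43, 39 and 74 counts in the 3 knockout libraries and 40, 33 and 30 in the 3 wild-type libraries and rose by 0.69 (SE 0.25, edgeR adjusted p = 0.0173). Scaled, its lowest knockout value was just above its highest wild-type value, and the call rested on single libraries. It was lost without knockout replicate 3, which held the highest value (0.39, edgeR adjusted p = 0.212), and without wild-type replicate 2 (0.59, edgeR adjusted p = 0.0625) or wild-type replicate 3 (0.63, edgeR adjusted p = 0.0537). Under the other alternatives its adjusted p was 0.00635 to 0.0433, by edgeR, DESeq2 or limma-voom.

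Nrarp, a small protein that is induced by Notch and dampens it, had 33, 30 and 15 counts in the 3 knockout libraries and 20, 35 and 17 in the 3 wild-type libraries, in ranges that overlap. Its log2 fold change was 0.23 (SE 0.34, edgeR adjusted p = 0.559). It shares 79.4% of its exonic bases with Gm38287 on the opposite strand, so most of its reads could not be placed on one gene without strand.

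Outside these genes, a list of 35 other genes of the pathway held 31 that could be tested, of which 8 rose, 15 fell and 8 did not pass, or 74.2% called against 68.6% of all genes. Their median log2 fold change was -0.09, against 0.01 over all tested genes. The 4 with the smallest adjusted p act in the nucleus. Spen, a corepressor that binds RBPJ when Notch is off, had 139, 144 and 143 CPM in the 3 knockout libraries, against 232, 249.8 and 241 CPM in the 3 wild-type libraries. It fell by 0.76 (SE 0.044, edgeR adjusted p = 4.37e-14). Ctbp2, a corepressor, fell by 1.12 (SE 0.067), at 37.6 ± 1.39 CPM in knockout and 81.5 ± 2.54 CPM in wild-type libraries (SD, n = 3 each). Kdm5a, a histone demethylase, rose by 0.72 (SE 0.045), at 192 ± 3.92 CPM in knockout and 117 ± 2.62 CPM in wild-type libraries (SD, n = 3 each), and Kat2a, an acetyltransferase, fell by 0.75 (SE 0.051), at 65.0 ± 0.639 CPM in knockout and 109 ± 1.82 CPM in wild-type libraries (SD, n = 3 each). The other members of that list are named after their values were seen. All 4 acetyltransferase genes of the list fell, Kat2b by 0.71, Ep300 by 0.45 and Crebbp by 0.16. They were grouped after the values were seen, and 34.0% of all tested genes were lower. The corepressor genes moved unequally, with Hdac1, Ctbp1, Tle3 and Tle4 also lower, Cir1 and Tle2 higher, and Ncor1, Hdac2 and Tle1 not passing. Itch, Nedd4, Cdk8 and Snw1 did not pass either.

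Aph1b and Aph1c encode scaffold subunits of gamma-secretase that can stand in for Aph1a. Aph1b had 26.0, 33.9 and 29.7 CPM in the 3 knockout libraries, against 8.16, 5.32 and 8.22 CPM in the 3 wild-type libraries, and rose by 2.06 (SE 0.15, edgeR adjusted p = 4.87e-12). Aph1c had 65, 69 and 62 counts in the 3 knockout libraries and 12, 7 and 14 in the 3 wild-type libraries, and rose by 2.65 (SE 0.28, edgeR adjusted p = 6.40e-09). In both the groups were far apart, but the genes are near copies of each other. Reads without a unique alignment had a tally of their own, so reads that the genes share may be missing from both levels. Per kilobase, as counted, Aph1b and Aph1c stayed below Aph1a. The mean level was 5.79 in knockout and 1.40 in wild-type libraries for Aph1b, and 17.6 in knockout and 16.1 in wild-type libraries for Aph1a (CPM per kb). The ligand-endocytosis genes Neurl1b, Neurl1a and Mib2 rose with Mib1, by 1.42 (SE 0.24), 0.71 (SE 0.10) and 0.37 (SE 0.065). The receptor-processing genes Furin, a convertase, and Poglut1, a glucosyltransferase, fell by 0.74 (SE 0.062) and 0.45 (SE 0.056). The ligand-endocytosis and receptor-processing genes were grouped after the values were seen. Of all tested genes, 34.5% were higher and 34.0% lower. Dlk2, a Delta-like membrane protein without the domain that activates receptors, fell by 1.79 (SE 0.26), and its relative Dlk1 had 0 counts in every library. Fbxw7, which marks the freed Notch domain for degradation, fell by 0.88 (SE 0.079), and Ccnc, the cyclin partner of Cdk8, which phosphorylates that domain, by 0.60 (SE 0.097).

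**Figure D4:**
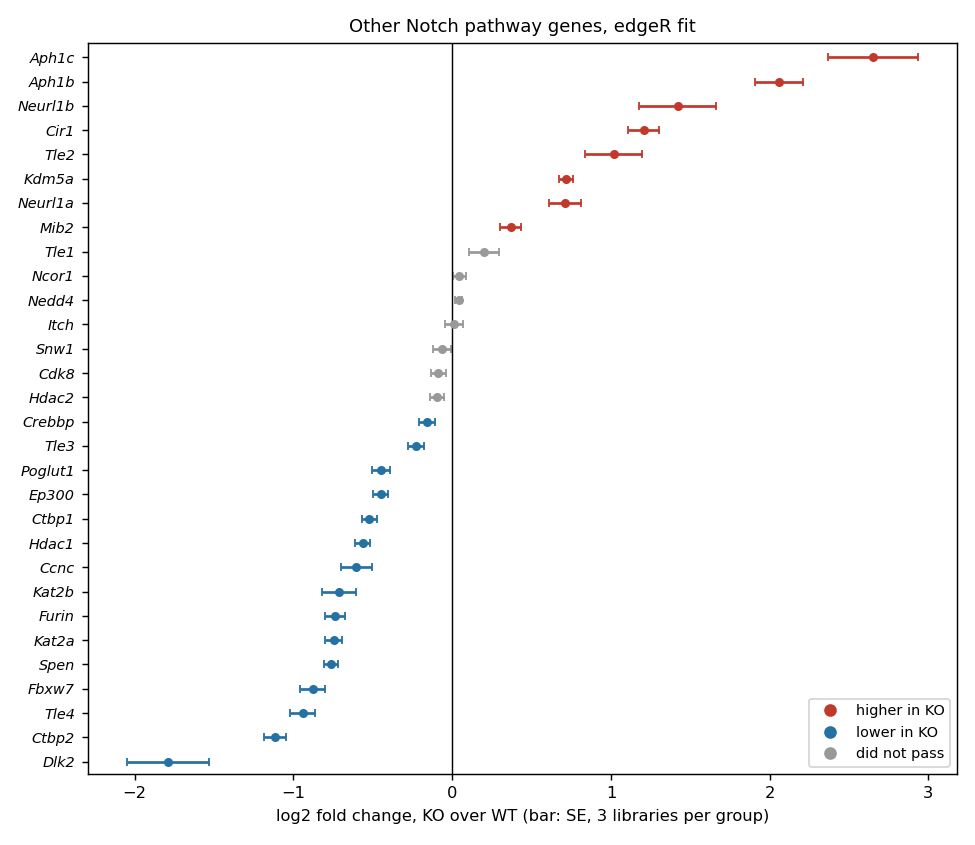
Log2 fold change, knockout over wild type, of 30 of the 31 tested genes in the list of other Notch pathway genes, with its standard error (3 libraries per group) and coloured by call. Aph1c and Aph1b lie farthest to the right at 2.65 and 2.06, and Dlk2 farthest to the left at -1.79.

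Proneural genes, which Hes repressors are known to hold down, were too low for testing, and 0 of 7 passed the filter. Atoh1 had 15, 8 and 5 counts in the 3 knockout libraries and 1, 0 and 0 in the 3 wild-type libraries. Neurog2 had 5, 7 and 1 counts in the 3 knockout libraries and 0, 0 and 1 in the 3 wild-type libraries, and Neurod1 had 0, 0 and 1 counts in the 3 knockout libraries and 2, 6 and 7 in the 3 wild-type libraries. Atoh1 was thus higher in every knockout library and Neurod1 lower, at counts near the floor. Fitted by edgeR with no low-count filter, the adjusted p was 3.31e-05 for Atoh1, 0.0267 for Neurog2 and 0.0185 for Neurod1. As for Hes2, these values cannot be set beside the adjusted p of the main fit, and the groups of Neurog2 overlapped. Neurog1, Neurog3 and Neurod4 had 0 to 5 counts in any library.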

How the data were processed

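RNA-seq was measured in 3 knockout and 3 wild-type libraries. The authors deposited 1 table of raw, whole-number counts for each library, by Ensembl identifier. The submitters' processing notes name HISAT2 2.1.0, HTSeq 0.9.1, DESeq2 1.18.1 and mm10. Strand setting, read layout and annotation release are not given in the sources used here. Tallies of unassigned reads (5 per table) were left out throughout. Genes took 36.0 to 38.4% of reads and the no-feature tally 42.3 to 43.5%.

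Symbols, positions, exon lengths (union over all transcripts, which can exceed the transcript in use) and exon overlaps came from GENCODE M21 on GRCm38, the same build, and 52489 of 52636 identifiers matched. Counts were fitted on the whole table with edgeR 4.0.16 in R 4.3.3 (filterByExpr with a minimum count of 10, TMM, quasi-likelihood F test, knockout over wild type, no covariate), with Benjamini-Hochberg adjustment over 15816 genes and a threshold of 0.05. SE is the log2 fold change divided by the root of F. CPM per kb was averaged over 3 libraries, and shares were compared by exact two-sided permutation in scipy 1.17.1. Fold changes are relative to the scaled library and do not show total RNA per cell. The procedure was tested on simulated counts in which only a small share of genes changed. That does not cover data where 68.6% of tested genes were called.

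Genes and lists were chosen with earlier results of these data known. Full values are given for members changed by at least 1 on the log2 scale, the most abundant member of each role, and every tested receptor, ligand and Hes or Hey gene. Of the other lists, 2 genes are counted but not reported here. From these lists come up to 4 genes with the smallest adjusted p. Alternatives were DESeq2 1.42.0, limma-voom (limma 3.58.1), RLE or upper-quartile scaling, no low-count filter, a filter at 1 CPM in 3 libraries, the replicate block, and each library left out.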

Additional observations from a re-analysis of the deposited data

How the results depend on the processing

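Over 13 alternatives, the 34 tested Notch genes kept direction and side of the threshold in 429 of 442 fits. The 13 others fell on 7 genes. Nrarp, which did not pass, was -0.0081 without knockout replicate 1 and 0.54 without knockout replicate 3, its range when 1 library was left out; the cause was not tested. Dtx1 lost its call in 3 fits, and Jag2, Pofut1, Adam17, Aph1a and Rbpj gained one in 9, of which 5 used upper-quartile scaling. The count of members higher ranged from 13 to 19 and that of members lower was 10 in every fit. Leaving out 1 library gave 13 to 15 higher. The 6 largest log2 fold changes then lay between 2.05 and 2.32 for Hey1, 1.34 and 1.82 for Mfng, 1.17 and 1.44 for Maml3, -2.04 and -1.50 for Notch4, -1.71 and -1.21 for Lfng and -1.48 and -1.23 for Jag1. DESeq2 gave 14 higher and 10 lower, and with it 9923 of all genes were called. The median log2 fold change of all genes was 0.05 with upper-quartile scaling, against 0.01 with TMM. No pairing by replicate number was seen, which does not show that same-numbered libraries were handled apart. Deviations from the group mean correlated at 0.01, 0.0049 and -0.01 between same-numbered libraries. The highest correlation of any pair was only 0.02, between knockout replicate 3 and wild-type replicate 2. With the replicate block 15 members were higher and 10 lower, and 10862 of all genes were called. Genes with few counts, such as Notch4, Lfng, Mfng and Hey2, have wider errors than the abundant members, and the cause was not tested.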
